A study of Mus musculus with 2 samples.

Results

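Brachyury and the regulators that act with it at the primitive streak were examined in Id1 knockout and wild-type mouse embryonic stem (ES) cells, with 1 microarray for each genotype. The set was chosen by name and held 10 genes: the T-box genes T (Brachyury) and Eomes, the homeobox genes Mixl1, Evx1, Gsc, Cdx1 and Cdx2, the bHLH gene Mesp1 and the ligand genes Wnt3 and Fgf8. Of these, 9 had probe sets that the annotation at hand assigns to them alone, 11 of 22626 probe sets, and 9 of 12393 genes in all. Brachyury was not analysed, because that annotation assigns no probe set to it alone. Whether any of the 691 probe sets with several symbols or the 1555 with none measures it was not checked. Both cultures, Id1 KO and WT, were ES cells grown on gelatin in serum and LIF, a cytokine added to block differentiation, and neither was differentiated. The labels name neither the ES cell line nor the number of clones, and Id1 KO and culture cannot be told apart with 1 array each. Without replicates no test of genotype was made, and the number of arrays limits the precision.

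The primitive streak is the site at which epiblast cells leave the epithelium to form mesoderm and endoderm. Wnt3 and Nodal signals, raised in turn by BMP4 from the neighbouring extraembryonic ectoderm, induce Brachyury, Eomes and Mixl1 in the streak, and Fgf8 is needed for cells to move out of it. Undifferentiated ES cells keep these genes low, and their appearance is the usual sign that ES cells have begun to make mesendoderm. Id1 encodes a helix-loop-helix protein that holds back E proteins, which bind the E-box. The study's title places Id1 upstream of Nanog and of Brachyury, and the comparison of the 2 arrays bears on which streak regulators differ when Id1 is missing.

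The 250 bases before the start of Brachyury and of Mesp1 are shown because, of the 7 members with an entry in the RefSeq promoter table, these are the ones that hold the core of a TCF/LEF site, the factors through which Wnt signals act. The Brachyury window is chr17:8434173-8434422 on the plus strand and the Mesp1 window chr7:79793591-79793840 on the minus strand, both of GRCm38.p6. Capitals mark the TCF/LEF core CTTTGA and the E-box CANNTG on either strand, and no match overlapped another.
T: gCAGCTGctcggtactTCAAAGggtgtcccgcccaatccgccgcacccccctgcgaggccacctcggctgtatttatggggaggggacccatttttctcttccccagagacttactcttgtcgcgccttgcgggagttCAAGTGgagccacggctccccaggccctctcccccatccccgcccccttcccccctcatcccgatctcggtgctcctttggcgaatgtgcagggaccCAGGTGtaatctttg
Mesp1: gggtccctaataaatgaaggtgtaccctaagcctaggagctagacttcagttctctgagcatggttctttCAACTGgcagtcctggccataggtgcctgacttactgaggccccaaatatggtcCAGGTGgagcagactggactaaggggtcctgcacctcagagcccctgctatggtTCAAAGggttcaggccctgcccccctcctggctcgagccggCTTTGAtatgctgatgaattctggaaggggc
Brachyury held 1 TCF/LEF core, which began 234 bases before the start, and 3 E-boxes, the nearest of them 15 bases before it. Mesp1 held 2 TCF/LEF cores, at 72 and 31 bases, and 2 E-boxes, at 180 and 126 bases. The E-box was found in 66.2% of 32851 promoter windows of this length and the TCF/LEF core in 13.8%. The T-box core TCACACC was in 3.33% of them and in none of the 7 members' windows. The windows of Eomes and Wnt3 held none of the 3 motifs, those of Gsc and Cdx2 held 1 E-box each and that of Evx1 held 2. These matches describe the letters of the windows and are no measure of binding.

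The regulators of the streak gave dim signals in both genotypes. Their intensities ran from 6.90 to 163 on the KO array, with a median of 27.0, and from 3.07 to 162 on the WT array, with a median of 41.6. A probe set was taken as near background when it lay under the array's median (155.0 for KO and 152.5 for WT) on both arrays. This held for 9 of the 11 probe sets, against 46.2% of all probe sets. A floor, below which values have no order, was set at the 25th percentile of both arrays together, an intensity of 48.4 on the KO array and 47.6 on the WT array. Of the 11 probe sets, 6 lay at or below the floor on both arrays (19.9% of all probe sets), 1 on the KO array alone, and 4 on neither. A gene entered the comparison when its brightest probe set reached the median on at least 1 array. Only Mixl1 and Mesp1 did so, and 7 of the 9 genes did not, against 40.5% of all genes.

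**Figure D1:**
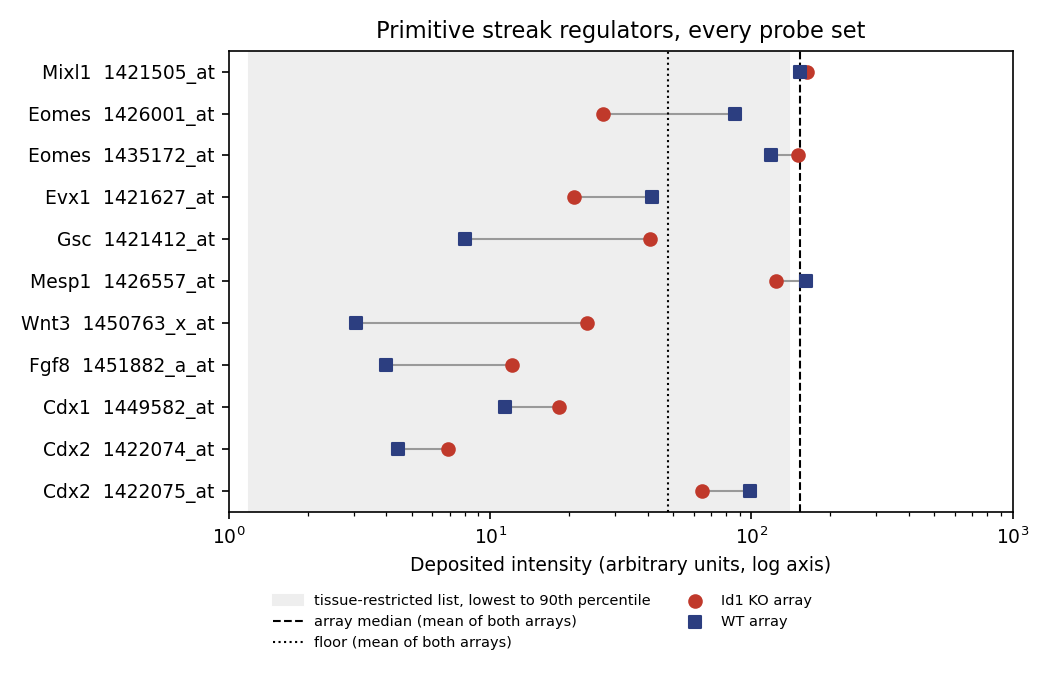
Deposited intensity (log axis) of each of the 11 probe sets on the Id1 KO array (circles) and the WT array (squares), with the array median (dashed), the floor (dotted) and the lowest to the 90th percentile of a list of tissue-restricted genes (shaded). Mixl1, Mesp1 and the brighter Eomes probe set lie near the median, and 6 probe sets lie left of the floor on both arrays.

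None of the 9 genes, and none of the 11 probe sets, was past a 2-fold difference in either direction. The share past it was 7.84% over all 7369 genes that entered the comparison (3.92% higher and 3.92% lower in the KO) and 8.11% over probe sets. With 2 members past the filter, a count of 0 stands close to that background and says nothing particular about them. Any share of the difference that came from fewer cells expressing a gene cannot be told apart from less RNA per cell.

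Signal that carries no information on ES cell expression was gauged in 2 ways. A list of 48 genes restricted to adult tissues, such as the caseins, crystallins and hepatic enzymes, was represented by 61 probe sets of 44 genes. Of these probe sets, 55 (90.2%) lay under the median on both arrays, and their 90th percentiles were 139 on both the KO and the WT array. The hypocretin and oxytocin genes and the muscle actinin gene Actn3 were the exceptions that read far higher, up to 721 on the KO array and 578 on the WT array. The 27 probe sets for Bacillus control transcripts, singled out after their values were seen, had medians of 13.8 on the KO array and 17.8 on the WT array and maxima of 69.6 and 67.6. Of the 11 probe sets of streak regulators, 8 lay at or below the 90th percentile of the tissue-restricted list on both arrays (43.7% of all probe sets), and the other 3 belonged to Mixl1, Mesp1 and Eomes. All 11 lay at or below its 95th percentile on both arrays (49.5% of all probe sets). Intensities of different probe sets also depend on their probes, so these positions place a signal against background and do not rank the genes by expression.

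**Figure D2:**
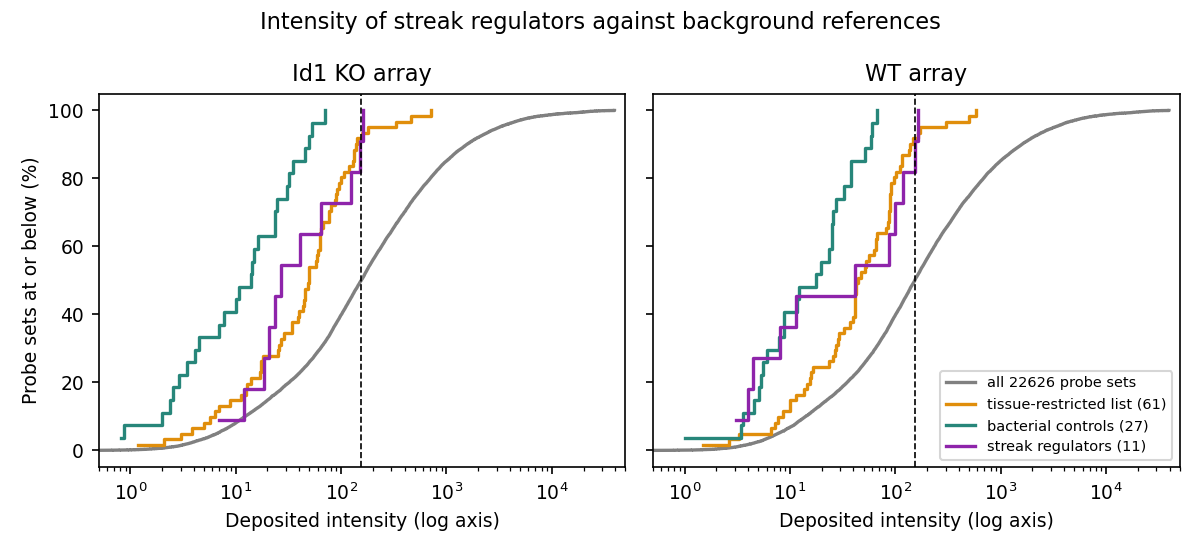
Share of probe sets (%) at or below each deposited intensity (log axis) on the Id1 KO array (left) and the WT array (right), for all 22626 probe sets, the tissue-restricted list (61), the bacterial controls (27) and the streak regulators (11). The dashed line is the array median, and the curve of the streak regulators stays left of the curve of all probe sets over most of its length, near that of the tissue-restricted list.

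The ligand genes of the set, Wnt3 and Fgf8, were at the floor. Wnt3, the ligand whose loss prevents streak formation in the mouse embryo, read 23.5 on the KO array and 3.07 on the WT array. Its probe set is of a kind (suffix x) that can also bind other transcripts. Fgf8, the ligand required for cells to leave the streak, read 12.1 on the KO array and 3.98 on the WT array. Both genes had the larger value on the KO array, but all 4 values lay below the floor, so with the floor applied they have no fold. Among the tissue-restricted probe sets, 44 of 61 were brighter than Wnt3 on the KO array and 51 were brighter than Fgf8.

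Of the T-box factors, Eomes was measured by 2 probe sets. Eomes is a T-box activator of mesendoderm genes and, earlier, a factor of the trophectoderm. Its brighter probe set (1435172_at) read 151 on the KO array and 119 on the WT array, a log2 difference of 0.32 that stayed under the median on both arrays. The dimmer probe set (1426001_at) read 27.0 on the KO array, below the floor, and 86.7 on the WT array, which is at least 1.82-fold lower in the KO. The probe sets of Eomes therefore differed in sign. Such disagreement was seen in 47.3% of the 912 genes with exactly 2 probe sets that did not reach the filter, and in 40.3% of the 2145 that did.

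Of the homeobox factors outside the caudal group, Mixl1 lay near the median and Gsc and Evx1 at the floor. Mixl1, the paired-type factor that restrains Brachyury and promotes endoderm, read 163 on the KO array and 154 on the WT array, both just above the median of their array. Its log2 difference was 0.05, or 1.04-fold. On both arrays Mixl1 was near the top of the tissue-restricted list, with 4 of 61 probe sets brighter than it in the KO and 5 in the WT. Gsc (Goosecoid), a marker of the organizer and anterior streak, read 41.0 on the KO array and 8.01 on the WT array. Evx1, which acts in the posterior streak, read 20.9 on the KO array and 41.6 on the WT array. Gsc was larger on the KO array and Evx1 on the WT array, and neither rose above the floor on any array.

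Mesp1, the bHLH factor that marks nascent cardiac and cranial mesoderm, read 125 on the KO array and 162 on the WT array. Its WT value passed the median and its KO value did not. The log2 difference of -0.41 corresponds to 1.32-fold lower in the KO, short of the 2-fold limit. Mesp1 and Mixl1 were the members just inside the brightness filter, and Eomes, at 151 against a median of 155.0, was the one just outside.

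The caudal factors, which pattern the posterior embryo downstream of Wnt signals, did not reach the filter. Cdx1 read 18.4 on the KO array and 11.4 on the WT array, at the floor on both. Cdx2, which also specifies the trophectoderm, was measured by 2 probe sets. The brighter one (1422075_at) read 64.5 on the KO array and 98.5 on the WT array, a log2 difference of -0.64 (1.55-fold lower in the KO). The dimmer one (1422074_at) read 6.90 on the KO array and 4.44 on the WT array, both below the floor and in the opposite order. Cdx2 thus had no probe set past the median on any array.

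The ratios of the dim probe sets were set beside the spread of the whole array at the same brightness. Without a floor, Wnt3 had a log2 difference of 2.91, Gsc 2.33, Fgf8 1.58, Evx1 -1.02 and the dimmer Eomes probe set -1.71. Among the 1000 probe sets nearest in mean brightness to Wnt3, the middle 95% of log2 differences ran from -3.68 to 2.95, and 42.3% were at least 2-fold apart. For Gsc that range was -3.28 to 2.88. At the brightness of Mixl1 it had narrowed to -1.24 to 1.19, with 8.8% at least 2-fold apart. All 11 probe sets of streak regulators lay inside the range for their own brightness, Wnt3 close to its upper edge. By this setting, chosen after the data were seen, Gsc, Wnt3 and Fgf8 would count as 2-fold higher and Evx1 as 2-fold lower, 4 of 9 genes and 5 of 11 probe sets. The background by the same setting was 7.73% of all genes higher, 8.86% lower and 16.6% either way, 18.7% of probe sets, and 29.4% of the 5024 genes that did not reach the filter. Of the 11 probe sets, 7 had the larger value on the KO array and 4 on the WT array. As 6 of the 11 lay at or below the floor on both arrays, where values have no order, this count shows no direction. The same count over all probe sets was not made.

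**Figure D3:**
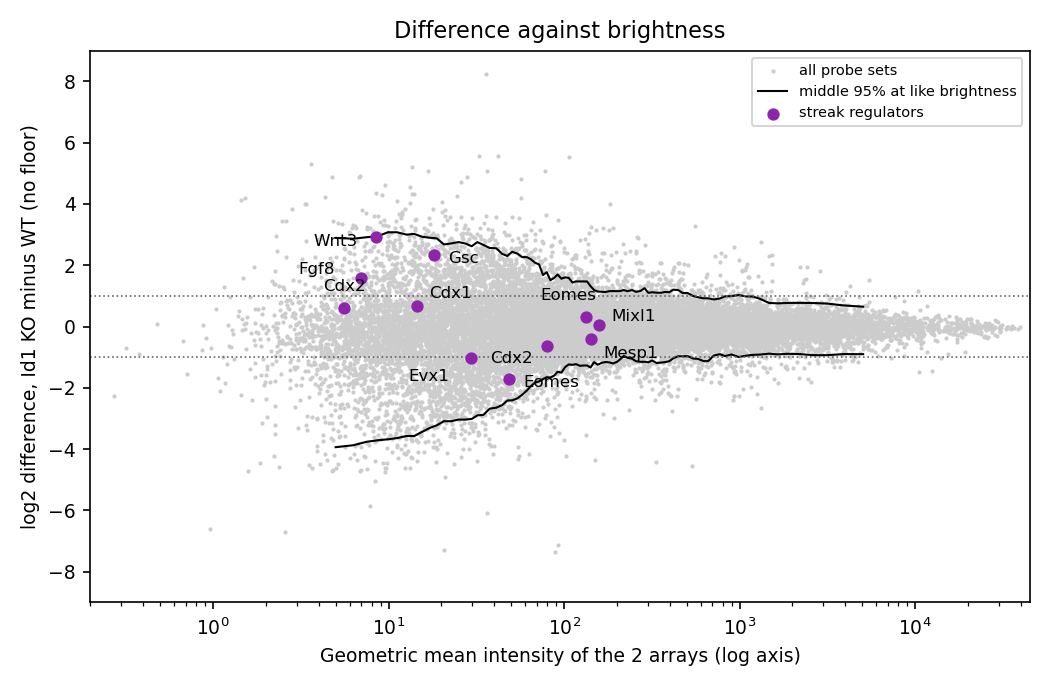
Log2 difference (Id1 KO minus WT, no floor) against the geometric mean intensity of the 2 arrays (log axis) for all probe sets (grey) and the 11 of streak regulators (purple, labelled). Black lines bound the middle 95% of differences at like brightness and dotted lines mark 2-fold; the range narrows with brightness and holds all 11.

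Markers of ES cells were bright on both arrays. All 13 ES cell markers passed the filter, 3 of them 2-fold lower in the KO and none 2-fold higher, with a median log2 difference of -0.36. For this list and those below, the share over all genes past the filter was 3.92% higher and 3.92% lower. Pou5f1 read 6834 on the KO array and 8636 on the WT array, and Sox2 4032 and 4526, neither of them 2-fold apart. The 3 lower ones were Nanog (2195 and 5423, 2.51-fold) and the naive-state factors Klf4 (408 and 2089, 5.21-fold) and Esrrb (619 and 1669, 2.74-fold). By their brightest probe sets, Utf1 (5302 and 3845), Lin28a (2493 and 1822), Sall4 (3351 and 2668) and Dppa4 (2525 and 2323) were higher in the KO. All of them were within 2-fold, and the other probe set of Lin28a was lower. The rest of the list was lower in the KO. The targeted gene Id1 read 461 and 1045, 2.30-fold lower. Where in Id1 the deletion lies is not stated, so its remaining signal checks the genotype only in part. Of 9 fibroblast markers represented, 7 stayed below the filter, and the summed signal of the list was 780 on the KO array and 840 on the WT array. Of 12 primitive endoderm markers, 4 passed the filter, with a median log2 difference of 0.81, and the defining factors Gata4, Gata6 and Sox17 stayed below it. The laminin gene Lamb1 read 773 on the KO array and 298 on the WT array, 2.55-fold higher, while its other passing probe set stayed within 2-fold; the part of these markers in the results was not tested. X-linked genes had a median log2 difference of -0.55 over 238 genes, 197 of them lower in the KO, against -0.0017 over the other genes. None of the 9 streak regulators is X-linked, and the part of this difference in the results was not tested.

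Of the signals that act above the streak regulators, Bmp4 and Fgf4 were 2-fold lower in the KO. Of 22 ligand and inhibitor genes on the array, 9 passed the filter. Of the 9, 2 were 2-fold lower and 7 were within 2-fold, and the median log2 difference was -0.59, against -0.01 over all genes past the filter. Bmp4, which triggers Wnt3 and Nodal signalling in the embryo, read 224 on the KO array and 896 on the WT array, 4.07-fold lower. Fgf4, the main ES cell activator of ERK, read 1269 and 3178, 2.55-fold lower by its brightest probe set, while its 2 other passing probe sets were also lower but stayed within 2-fold. The Nodal ligand itself read 1008 and 1646 by one probe set and 539 and 896 by another, log2 differences of -0.73 and -0.76. Its coreceptor Tdgf1 (Cripto) read 5068 and 6482, and the inhibitor Lefty1, a target of Nodal signalling, was higher in the KO at 3333 against 1698 (log2 difference 0.95). Fgf17, a close relative of Fgf8, read 387 and 650, and both of its probe sets were lower in the KO. The Wnt ligand Wnt3a, which maintains the streak once it has formed, did not reach the filter, at 77.5 and 37.3.

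Receptor genes past 2-fold were higher in the KO, and no transducer gene was past it. Of 21 receptor genes, 12 passed the filter. Of the 12, 2 were 2-fold higher and 10 were within 2-fold, and the median was 0.30. The Frizzled receptor gene Fzd2 read 571 on the KO array and 132 on the WT array, 4.25-fold higher, and its other probe sets were 3.34-fold and 2.43-fold higher. All of its WT values lay under the WT median of 152.5, so these folds are ratios to dim values. Fzd7 was 2.16-fold higher, at 823 and 375, with its other probe set at the floor on both arrays. Fzd5 went the other way, 1.88-fold lower in the KO at 319 and 591, and Fzd8 did not reach the filter. Fgfr1 and Fgfr4 were within 2-fold by their brightest probe sets. Each also had a passing probe set past 2-fold, 2.01-fold higher for Fgfr1 and 2.10-fold higher for Fgfr4. Of 13 genes of transducers, 11 passed the filter and none was past 2-fold, with a median of 0.21. Beta-catenin (Ctnnb1) read 8444 and 8919, and Tcf7l1, the TCF repressor of Wnt targets in ES cells, 793 and 640. For Foxh1, the partner of SMADs at Nodal targets, the brightest probe set gave a log2 difference of 0.07 and the 2 others 1.14 and 1.21, so its probe sets disagreed on the 2-fold limit.

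Direct readouts of Wnt activity and later streak factors were mostly near background. Of 11 Wnt feedback and target genes, 3 passed the filter. The Wnt deacylase gene Notum read 210 on the KO array and 686 on the WT array, 3.31-fold lower. The other passing targets, Ccnd1 (1223 and 1129) and Myc (642 and 537), were within 2-fold. Axin2, the usual reporter of beta-catenin activity, read 151 and 147 by its brighter probe set, just under the median on both arrays. Its other probe set was at the floor on both (38.7 and 8.92). Lef1 and Sp5, 2 further targets, did not reach the filter either. Of 26 streak and mesoderm factors on the array other than the members, 20 did not reach it and none of the 6 that did was past 2-fold (median 0.03). The 6 included Otx2, an anterior epiblast factor (856 and 451, log2 difference 0.90), and Tcf15, a bHLH factor found in ES cells and paraxial mesoderm (947 and 1802, -0.95). Msgn1, a Brachyury target of the presomitic mesoderm, read 161 and 129, and Tbx6, of the same tissue, 70.1 and 87.3. Foxa2, a factor of the anterior streak and endoderm, read 118 and 137. Over the 90 genes of these 5 lists on the array, 41 passed the filter, 2 were 2-fold higher and 3 were 2-fold lower.

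Tbx3 was the T-box gene past 2-fold. Of 14 T-box genes on the array, 12 stayed below the filter. Tbx3, which acts in naive ES cells, read 160 on the KO array and 1054 on the WT array, 6.70-fold lower, with its other probe set at the floor on both. Mga, a T-box and MAX-binding repressor, read 210 and 264.

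Because Cdx2 and Eomes are also trophoblast factors, a list of trophoblast genes was set beside them. Of 20 on the array, 12 passed the filter, 3 were 2-fold higher and 2 were 2-fold lower, with a median of -0.03. The higher ones were Phlda2 (4.91-fold) and the simple keratins Krt8 (4.50-fold) and Krt18 (3.60-fold), and the lower ones the X-linked homeobox genes Rhox6 (3.15-fold) and Rhox9 (2.59-fold, named after its value was seen). Elf5, Tead4 and Gata3, which act with Cdx2 and Eomes in trophoblast, stayed below the filter. Other regulators on the list passed it within 2-fold. Tfap2c (381 on the KO array and 567 on the WT array), Ets2 (208 and 401) and Ascl2 (123 and 221) were lower in the KO. Gata2 (260 and 247) and Hand1 (213 and 189) were slightly higher. Of 10 neural markers, 4 passed, with a median log2 difference of 0.75. The neural progenitor gene Nes was 2-fold higher (2.14-fold), although its other passing probe set gave a log2 difference of 0.15. Sox3 (279 on the KO array and 156 on the WT array) and Neurod1 (454 and 277) were higher in the KO but within 2-fold. The other probe set of Neurod1 (380 and 187) was just past 2-fold. Tubb3 (340 and 402) was lower in the KO, within 2-fold.

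**Figure D4:**
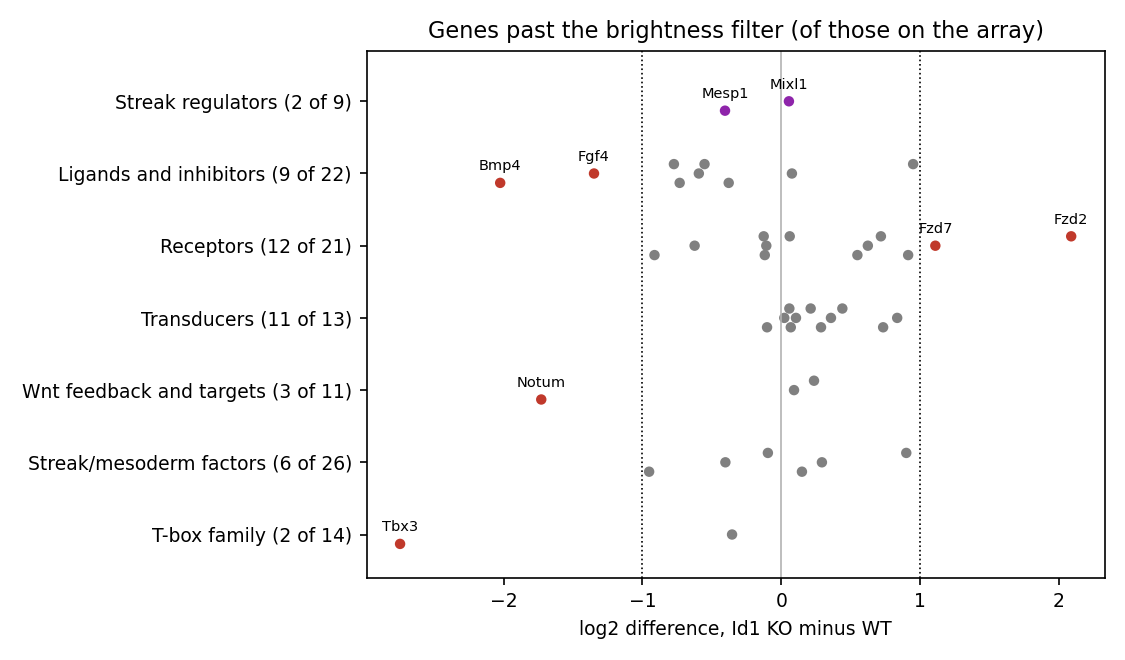
Log2 difference (Id1 KO minus WT) of each gene past the brightness filter, by list, with the number past the filter and on the array in brackets; dotted lines mark 2-fold, red points are past it and the streak regulators are purple. Mixl1 and Mesp1 lie between the lines, whereas Bmp4, Fgf4, Notum and Tbx3 lie below them and Fzd2 and Fzd7 above.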

How the data were processed

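Total RNA (1 ug per array, per the labels' protocols) was labelled with biotin and read on an Affymetrix-type mouse array. The authors deposited 1 linear intensity per probe set, and the software behind it is not given in the sources at hand. Both arrays had a mean of 500.2 after trimming 2% from each end, so a common scaling had been applied before deposit. Probe sets were named through the platform annotation of 2016, which gave 20380 of 22626 non-control probe sets 1 symbol, 691 several and 1555 none.

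Intensities were converted to log2, centred on each array's median, which removed 0.02, and floored at the 25th percentile. The probe set brightest on average stood for its gene. A gene was counted at 2-fold, and no p-value was computed. The members and lists were chosen with earlier results of these data known. Every member probe set was named. Of other genes, Id1, Nanog, Pou5f1 and Sox2 were named, with up to 4 per list past 2-fold and genes that show why a count is small. Further passing genes of a list, and genes whose probe sets disagreed, were named after their values were seen. The procedure was tested on simulated data in which changes were planted only in genes past the brightness filter. That test says nothing about the 7 streak regulators below it. Its noise above the median was also narrower than the spread between these arrays, -1.24 to 1.19 at the brightness of Mixl1. It therefore does not show how well changes are recovered in these data. Alternatives covered scaling, floor, filter, pseudocount, probe set choice and fold. Python 3.11.15, pandas 2.3.3, numpy 2.4.6 and statsmodels 0.14.6 were used.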

Additional observations from a re-analysis of the deposited data

How the results depend on the processing

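No paired analysis was possible because each genotype had 1 array, and no replicate could be left out. The count of streak regulators at least 2-fold apart was 0 under each of the 12 alternatives that changed 1 choice, and that of their probe sets was 0 under each of 11. With no floor and no filter together, chosen after seeing the data, it was 4 genes and 5 probe sets. Several of the single changes could hardly have moved the count of 0. Without the floor alone, the 7 genes under the filter still could not count. Without the filter alone, genes at the floor on both arrays still could not. A 3-fold limit cannot raise a count of 0, and at 1.5-fold the filter alone kept out Cdx2 (1.55-fold). The probe sets near background numbered 9, and 6, 8 or 11 with the floor, the 90th or the 95th percentile of the tissue-restricted list as the threshold. Averaging its probe sets turned the log2 difference of Eomes from 0.32 to -0.27. The 5 pathway genes past 2-fold (2 higher, 3 lower) became 3 with probe sets averaged (1 higher, without Fzd7 and Fgf4). They became 3 at 3-fold (1 higher) and 6 with quantile normalization, which added Lefty1. No filter, or a filter at the 75th percentile of the tissue-restricted list, also gave 6, by adding Foxc2. At 1.5-fold they were 18 of 41 (9 higher, 9 lower), against 22% of all genes past the filter. With no floor and no filter they were 16 of 90 (7 higher, 9 lower), close to the 16.6% of all genes. With both values required at the median, 1 pathway gene was higher, since the WT value of Fzd2 lay under it. No gene counted in either direction reversed. Dim signal limits what can be seen: at the brightness of Wnt3, 42.3% of probe sets were at least 2-fold apart between these arrays, against 8.8% at that of Mixl1.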
